A study of Saccharomyces cerevisiae with 4 samples.

Results

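The reading frames described here are those budding yeast genes whose only name on the array is a systematic one ending in a letter, such as YMR230W-A. They were chosen by that name pattern alone and numbered 142 genes, measured by 148 probe sets, of 5449 genes measured by 5498 probe sets. Wild-type Saccharomyces cerevisiae of strain W1588-4c was grown in YPD, a rich glucose medium, to log phase at an OD600 of 0.6 to 0.8. Both groups were this 1 strain with no allele changed by the study: 2 cultures were labelled with the solvent DMSO and 2 with ebselen at 100 µM for 3 h. The labels call the 2 arrays of a group biological replicates, and the time is stated for ebselen. Ebselen is an organoselenium drug that reacts with thiols, and the comparison asks how it changes gene expression.

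In the yeast naming system a systematic name gives the chromosome, the arm, a count along the arm and the coding strand (W or C). A suffix letter marks a reading frame that was added after the original count was fixed. Most such frames are short, were found late by expression, by comparison with other fungi or by proteomics, and have no assigned function; a gene that earned a standard name is not among them here. A few are instead the reading frames of Ty elements, the long-terminal-repeat retrotransposons of yeast. A Ty element makes 1 long transcript from which the Gag capsid protein and, by a programmed frameshift, the Gag-Pol polyprotein with its enzymes are translated.

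The label of small reading frames fitted 131 of the 142 genes. Their coding spans in the RefSeq table of assembly R64 were 51 to 930 bases long with a median of 171, and 123 of the 131 were no longer than 300 bases. The other 11 were Gag or Gag-Pol frames of Ty elements, 873 to 5410 bases long, and are described apart from the small ones. RefSeq gave a standard name to none of the 142. Sequences were not analysed here, and no coordinates are given because the files name no genome build.

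Each value is a log2 level relative to the median of the same probe set over the 4 arrays, so levels of different frames cannot be compared and only differences between arrays carry information. A difference is ebselen minus DMSO on the log2 scale, with limma's moderated standard error (SE, n = 2 arrays per group). Below, rose and fell mean an adjusted p under 0.05 in limma's two-sided test, with Benjamini-Hochberg adjustment over all 5449 genes. In RNA from a whole culture, a change in the share of cells that make a transcript and a change per cell cannot be told apart.

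Of the 142 frames, 42 (29.6%) rose and 33 (23.2%) fell with ebselen, and 67 did not pass the test. Over all 5449 genes, 33.0% rose, 38.8% fell and 71.7% changed in either direction, against 52.8% of the suffixed frames. Their median difference was 0.05, with quartiles at −0.22 and 0.41, and the median over all genes was −0.03. Median absolute differences were 0.318 for the frames and 0.378 for all genes. A rise of at least 2-fold was seen for 9 frames (6.34%, against 4.18% of all genes) and a fall of at least 2-fold for 8 (5.63%, against 7.56%). Because each array's scale comes from the authors' normalization, the balance of rises and falls depended on it. Of the called frames, 56% were higher with the values as deposited (45.9% over all genes). After scaling on hybridization controls, the bacterial and phage transcripts added to every sample, which lowered all differences by 0.35, 22.8% were higher (16.9% over all genes). After removal of the trend with coding length, the shares were 48.1% of the called frames and 47.9% of all called genes. The share that passed the test in either direction also depended on the scale. On the hybridization controls it was 71.1% of the frames and 70.1% of all genes.

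**Figure D1:**
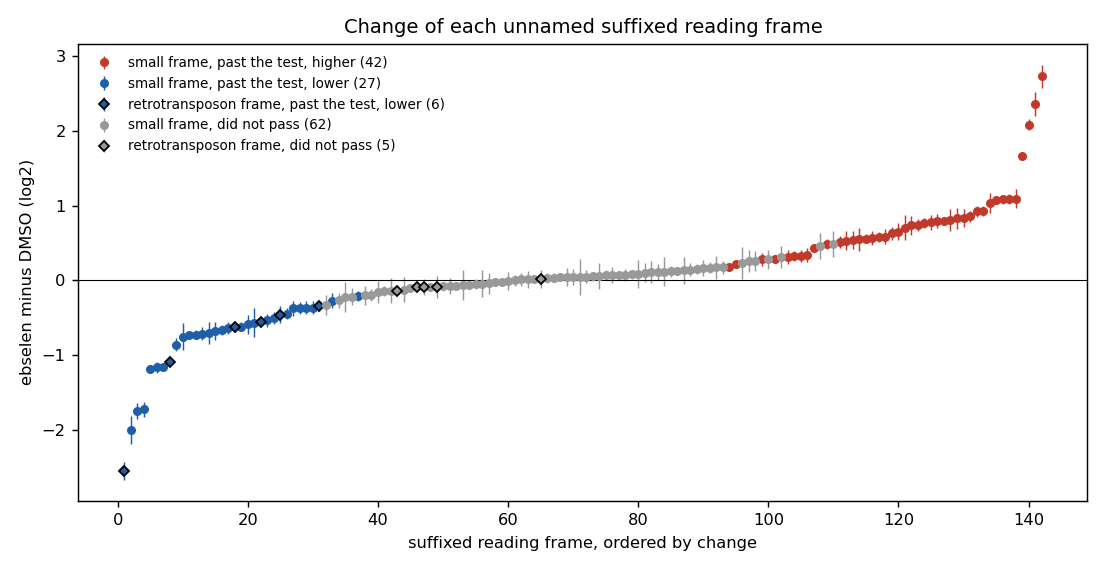
Difference between ebselen and DMSO for each of the 142 suffixed frames, on the log2 scale, ordered from the largest fall to the largest rise; bars are 1 moderated SE and diamonds mark Ty frames. The differences run from −2.55 to 2.73, and 55 of the 67 frames that did not pass lie within 0.2 of zero.

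Replicate arrays differed more for these frames than for other genes. The median within-group SD was 0.116 for the 142 frames and 0.061 for all genes. It was 0.056 for the 107 suffixed genes that carry a standard name and 0.062 for the 55 unsuffixed genes of at most 300 bases. These comparison lists also had larger shares past the test, 69.2% and 80%. In the named suffixed list 47 rose and 27 fell, and in the short unsuffixed list 22 rose and 22 fell. The array also carries probe sets directed at another yeast, Schizosaccharomyces pombe, which should have no matching transcript here. The 1747 annotated probe sets that matched no gene of the RefSeq table were taken as these, and probe sets without a symbol were left out. The 1747 had a median SD of 0.126 and a median absolute difference of 0.133. The arrays of the 2 groups did not overlap for 96 of 142 suffixed frames (67.6%), 86.6% of all genes and 42.5% of the S. pombe probe sets. By size alone, with no test applied, 24 positive differences (16.9%) and 19 negative ones (13.4%) among the frames exceeded 0.60 in absolute value. This was the 99th percentile of the S. pombe probe sets. Over all genes 12.6% were higher and 17.7% lower by more than 0.60, and both directions together made 30.3% of the frames and 30.3% of all genes. Signal above background cannot be read from centred values, and its part in the lower share of calls was not tested.

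**Figure D2:**
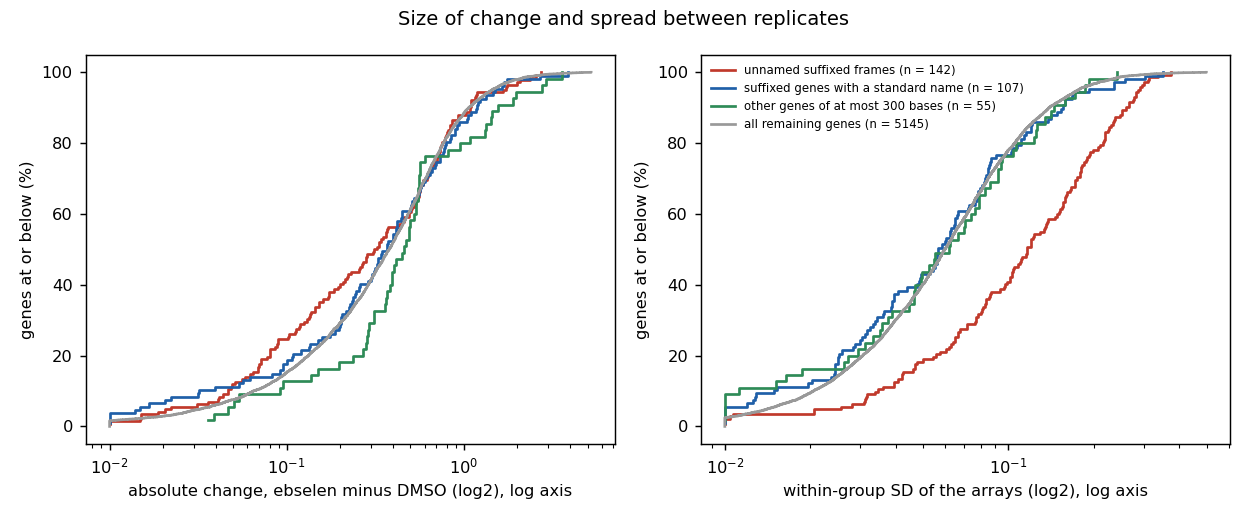
Cumulative share of genes (%) by absolute difference (left) and by within-group SD of the arrays (right), both log2 values on a log axis, with values under 0.01 drawn at 0.01. The curve of the suffixed frames lies to the right in the SD panel (median 0.116 against 0.061 for all genes), while in the left panel the suffixed frames and all remaining genes lie close together above 0.60.

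Among small frames, length and difference were unrelated in rank (Spearman's rho 0.00 over 131 frames, against 0.19 between length and difference over all genes, descriptions on the same 4 arrays). Calls were fewer among the shortest. Of the 47 frames of 51 to 150 bases, 10 rose and 8 fell (38.3% called), with a median SD of 0.137. Of the 41 frames of 153 to 204 bases, 17 rose and 9 fell (63.4%), with an SD of 0.116. Of the 43 frames of 207 to 930 bases, 15 rose and 10 fell (58.1%), with an SD of 0.103.

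The largest rise was that of YMR230W-A, a frame of 189 bases. Its levels were −1.63 and −1.21 in the DMSO arrays and 1.21 and 1.43 in the ebselen arrays. The groups were far apart, and the difference of 2.73 (SE 0.155, 6.65-fold, adjusted p = 0.000104) was the third largest rise of all genes. The gene of the same number, RPS10B, which encodes a protein of the small ribosomal subunit, lies upstream on the same strand and rose by 1.75.

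YMR001C-A, of 231 bases, had levels of −1.16 and −1.03 with DMSO and of 1.51 and 1.03 with ebselen. It rose by 2.36 (SE 0.164, 5.14-fold, adjusted p = 0.000178), rank 6 among all genes, and the ebselen arrays differed from each other by less than the gap between groups. The gene next to it on the same strand is CDC5, the polo-like kinase of mitotic exit, which rose by 0.44. MIX17, on its upstream side and the opposite strand, fell by 0.47. YLR342W-A, of 174 bases, had levels of −0.98 and −1.10 with DMSO and of 0.98 and 1.11 with ebselen. Its rise of 2.08 (SE 0.0717, 4.24-fold, adjusted p = 3.09e-05) exceeded that of its upstream neighbour FKS1, a catalytic subunit of the cell wall glucan synthase, at 0.37. FKS1's own direction was not stable, being −0.03 after removal of the trend with coding length.

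YMR030W-A, of 291 bases, had levels of −0.83 and −0.81 with DMSO and of 0.81 and 0.88 with ebselen, the tightest replicates of the 4 largest rises. It rose by 1.67 (SE 0.0542, 3.17-fold, adjusted p = 2.66e-05). Its name places it with RSF1, a factor for respiratory growth, which fell by 0.21. In the RefSeq table, however, the frame starts 5 bases after the coding span of HOF1, a cytokinesis protein of the bud neck, and not beside RSF1. HOF1 rose by 0.87 and ARP9, a chromatin remodeler subunit on its other side, by 0.60.

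Between 1.03 and 1.09 lay 5 further rises. YKL183C-A rose by 1.09 (SE 0.124), with −0.70 and −0.42 in DMSO against 0.65 and 0.42 in ebselen. YGR121W-A rose by 1.09 (SE 0.0688), with −0.56 and −0.50 against 0.64 and 0.50. MEP1, the ammonium permease gene of that number on the opposite strand, fell by 0.76. YOL097W-A rose by 1.08 (SE 0.0555), with −0.52 and −0.54 against 0.52 and 0.59, and the cytosolic tryptophanyl-tRNA synthetase gene WRS1 beside it rose by 0.69. YDR182W-A rose by 1.08 (SE 0.0531), with −0.52 and −0.55 against 0.52 and 0.57. It lies downstream of CDC1, a gene of GPI anchor remodelling, which rose by 0.37. YGR146C-A rose by 1.03 (SE 0.134), with −0.59 and −0.38 against 0.38 and 0.72, between ECL1, a gene of chronological life span, which fell by 1.00, and NAT2, which fell by 0.22. The groups were separate for all 5, which the choice of frames required, and the replicates were widest for YKL183C-A and YGR146C-A. The methods' t-test did not call these last 2 (adjusted p = 0.0529 and 0.064).

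The list of the 12 largest rises ended with YHR175W-A at 0.93 (SE 0.0629), YGL041C-B at 0.92 (SE 0.0706) and YJL047C-A at 0.86 (SE 0.0709). YHR175W-A lies downstream of CTR2, a vacuolar copper transporter gene, which rose by 0.62. FMO1, the next gene downstream of YHR175W-A on the same strand, fell by 0.63. The coding span of YGL041C-B overlaps that of DPC13 on the opposite strand and that of YJL047C-A overlaps the small nucleolar RNA gene SNR60. Neither of those overlapping genes was measured, and signal from them cannot be told apart here. On the hybridization controls, which lower every difference alike, several neighbours named above were no longer called: CDC5 was at 0.08 (adjusted p = 0.591), FKS1 at 0.02 (0.911), ARP9 at 0.24 (0.0909), CDC1 at 0.02 (0.917) and CTR2 at 0.27 (0.0599). HOF1 at 0.52 and WRS1 at 0.34 still passed.

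**Figure D3:**
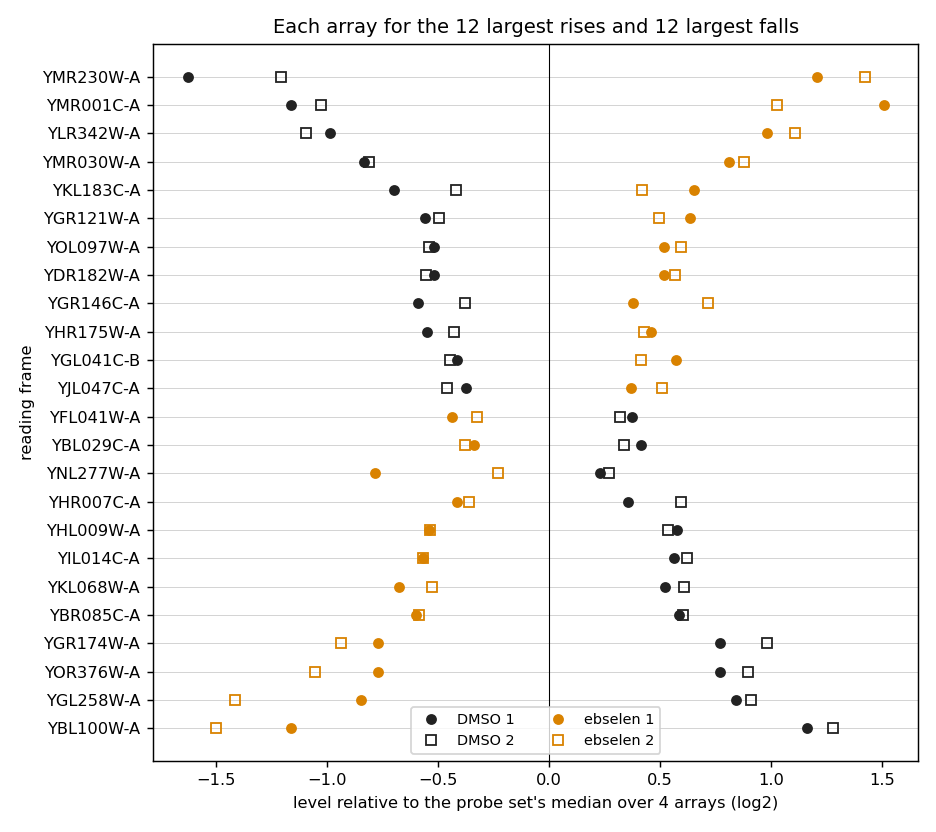
Level on each of the 4 arrays, relative to the probe set's median (log2), for the 12 largest rises and the 12 largest falls among the suffixed frames. In all 24 the ebselen points lie on one side of the DMSO points, which the choice of frames required; the ebselen pairs of YGL258W-A (−0.84 and −1.42) and YNL277W-A (−0.78 and −0.23) are the most uneven.

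The largest fall of a small frame was that of YGL258W-A, of 234 bases. It had 0.84 and 0.91 in the DMSO arrays and −0.84 and −1.42 in the ebselen arrays, and fell by 2.01 (SE 0.186, 4.02-fold, adjusted p = 0.000437). The second ebselen array was the lower one, but both lay well below DMSO. VEL1, the next gene downstream on the same strand, rose by 0.28 (−0.07 on the hybridization controls), and YPS5 upstream, an aspartic protease family gene, had a difference of −0.09 (adjusted p = 0.299).

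YOR376W-A, of 156 bases, had 0.77 and 0.90 with DMSO and −0.77 and −1.05 with ebselen. It fell by 1.75 (SE 0.109, 3.36-fold, adjusted p = 0.000129), with ATF1 downstream, an alcohol acetyltransferase gene of aroma ester synthesis, at −0.20 (adjusted p = 0.0525). YGR174W-A, of 87 bases, had 0.77 and 0.98 with DMSO and −0.77 and −0.94 with ebselen, and fell by 1.73 (SE 0.0981, 3.31-fold, adjusted p = 0.000104). It was measured by a pair of probe sets that gave −1.81 and, for the one whose identifier marks possible cross-hybridization, −1.64. CBP4 upstream, an assembly factor of respiratory complex III, fell by 0.65.

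YBR085C-A, of 258 bases, had 0.59 and 0.60 with DMSO and −0.60 and −0.59 with ebselen, and fell by 1.19 (SE 0.0498). The gene of its number on the opposite strand is AAC3, the hypoxic mitochondrial ADP/ATP carrier, which rose by 0.99. YKL068W-A, of 237 bases, had 0.52 and 0.61 with DMSO and −0.68 and −0.52 with ebselen, and fell by 1.17 (SE 0.0734). NUP100, a nuclear pore gene downstream of it, rose by 0.18, a difference that was −0.02 after removal of the length trend and −0.18 on the hybridization controls. Without the first DMSO array the calls of RSF1, VEL1 and NUP100 were lost (adjusted p = 0.086, 0.0729 and 0.176), and without the second DMSO array those of RSF1 and NUP100 (0.0815 and 0.1). NUP100 was also not called without the second ebselen array (0.101). YIL014C-A, of 315 bases, had 0.57 and 0.62 with DMSO and −0.57 in both ebselen arrays, and fell by 1.16 (SE 0.0524).

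YHR007C-A, of 216 bases, fell by 0.86 (SE 0.091) between ERG11, the lanosterol demethylase gene, at −0.02 (adjusted p = 0.784) and SOD2, the mitochondrial superoxide dismutase gene upstream, which fell by 1.50. YNL277W-A fell by 0.75 (SE 0.18, adjusted p = 0.0134). Its ebselen levels of −0.78 and −0.23 lay both below the DMSO levels of 0.23 and 0.27, and the methods' t-test did not call it (adjusted p = 0.152). MET2, a methionine synthesis gene downstream of it, fell by 0.99, and CAF120, 225 bases upstream on the same strand, rose by 0.78 (adjusted p = 0.000846). YBL029C-A fell by 0.73 (SE 0.0561), and YFL041W-A fell by 0.73 (SE 0.0634) with FET5 downstream, a multicopper oxidase gene, which fell by 0.46.

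At the threshold, the 3 called frames with the largest adjusted p were YKL106C-A (−0.27, adjusted p = 0.0483), YPR159C-A (−0.57, 0.0431) and YDL085C-A (0.28, 0.0368). YDL085C-A belongs to the SERF family of small charged proteins. Its difference was −0.07 on the hybridization controls. All 3 calls were lost on leaving out single arrays: YKL106C-A without DMSO 2 (0.208) or ebselen 1 (0.159), YPR159C-A without DMSO 2 (0.13) or ebselen 2 (0.125), and YDL085C-A without DMSO 1 (0.139), DMSO 2 (0.0511) or ebselen 2 (0.098). Just outside the threshold were YHR086W-A (0.49, 0.0508), YJL136W-A (0.46, 0.0642) and YAL037C-A (−0.33, 0.0678). YHR086W-A was called without ebselen 1 or ebselen 2, YJL136W-A without DMSO 1 or ebselen 2, and YAL037C-A without DMSO 1. The 67 frames that did not pass had absolute differences of 0.00 to 0.49 with a median of 0.09. In 21 of them the groups did not overlap, and 2 had an unadjusted p under 0.05. For comparison, the groups did not overlap for 42.5% of the S. pombe probe sets and for 86.6% of all genes, called or not.

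Sharing a number with a gene went with either direction. A tested gene of the same number without suffix existed for 119 of the 142 frames. In 47 of those pairs both passed the test, 26 in the same direction and 21 in opposite ones (Pearson's r 0.14 and Spearman's rho 0.19 over 119 pairs on shared arrays, a description). Among the 111 pairs of small frames, 98 of the same-number genes lay next to the frame or overlapped it and 13 did not. Chosen after their values were seen, the widest contrasts were at HSP26 and NDE2. HSP26, a small heat shock protein gene, fell by 4.20 while YBR072C-A on the other strand rose by 0.56 (SE 0.0609), from −0.27 and −0.24 to 0.36 and 0.24. NDE2, an external NADH dehydrogenase of mitochondria, fell by 2.85 beside YDL085C-A. SEO1, a putative permease gene, fell by 2.06 while YAL067W-A had a difference of −0.02 (SE 0.0552, adjusted p = 0.773).

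Genes of ribosomal proteins gave 8 same-number pairs, also chosen after their values were seen. All 8 ribosomal protein genes rose, by 0.81 to 1.91. Of their suffixed frames, YMR230W-A rose by 2.73 and YNL067W-B, paired with RPL9B, rose by 0.43. The other 6 did not pass, with differences of −0.22 to 0.46. YLR406C-A, for example, was at 0.07 (adjusted p = 0.274) where RPL31B rose by 1.91. Among all 142 suffixed frames 29.6% rose, and among all genes 33.0%, so 2 of these 8 is near the general share.

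Frames sharing a number also differed from each other. YBR196C-A rose by 0.65 while YBR196C-B was at 0.07 (adjusted p = 0.571). YHR214C-D rose by 0.33 while YHR214C-E was at 0.04 (adjusted p = 0.756). YCL001W-B fell by 0.68 while YCL001W-A was at −0.04 (adjusted p = 0.799), and YDR524W-C fell by 0.37 while YDR524C-B was at 0.02 (adjusted p = 0.798). The differences within these pairs were not tested.

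Position showed a closer relation to direction than number did, on the upstream side. For 49 small frames the next gene upstream lay on the same strand and was measured. Both passed the test in 17 pairs, 13 of them (76.5%) in the same direction, with 7 pairs rising and 6 falling. The methods' t-test gave 7 of 7 in the same direction and the hybridization controls 23 of 31. On those controls only 22.8% of the called frames and 16.9% of all called genes were higher, so called pairs mostly share a direction wherever they lie. Adjacent pairs of other genes were not counted under that setting, and its 23 of 31 shows little about position. The differences correlated with r = 0.46 and rho = 0.48 (49 pairs, and 0.41 and 0.46 for 47 pairs without YMR230W-A and YGL258W-A, the frames farthest from the median). With the next gene downstream on the same strand, 72 pairs gave 13 in the same direction and 15 in opposite ones, with r = 0.08. With upstream neighbours on the opposite strand, 54 pairs gave 8 and 5 (r = 0.10), and with downstream ones 40 pairs gave 5 and 8 (r = −0.11). Adjacent pairs of other genes on the same strand went the same way in 591 of 1123 cases (52.6%, r = 0.10 over 2148 pairs). All these correlations are across genes on the same 4 arrays, neighbouring genes are not independent replicates, and the differences between the relations were not tested.

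The agreement lay mostly with close upstream genes, a split made after the values were seen. Among the 25 upstream pairs with at most 258 bases between coding spans, the median distance, both passed in 12 and 11 of those agreed (r = 0.54, rho = 0.63). Among the 24 more distant pairs both passed in 5 and 2 agreed (r = 0.17, rho = 0.24). Other adjacent genes on the same strand within 258 bases agreed in 118 of 219 cases (53.9%, r = 0.13 over 426 pairs). Over the 13 other settings applied to each gene, the close pairs that agreed numbered 11 of 12 in 7 settings and between 6 of 6 and 13 of 15 in the rest. The hybridization controls gave 13 of 15, but most called genes were lower there, so that count shows little about position. The close risers were YMR030W-A, 5 bases from HOF1; YDR182W-A, 93 bases from CDC1; YGR240C-A, 97 bases from YAP1802, an endocytic adaptor gene; YHR175W-A, 116 bases from CTR2; YMR230W-A, 126 bases from RPS10B; and YLR342W-A, 182 bases from FKS1. The close pair that disagreed was YNL277W-A, which fell, and CAF120, which rose. Among those that fell with a close upstream gene, YMR175W-A was 58 bases from SIP18, a desiccation hydrophilin gene. YMR175W-A fell by 0.70 (SE 0.145), from 0.21 and 0.61 to −0.21 and −0.38, and SIP18 fell by 3.60. The arrays report RNA labelled from its poly-A end. The values do not tell a separate short transcript from the 3′ end of the upstream gene's transcript, and which of these was measured was not tested. The 8 transcripts with separate 5′ and 3′ probe sets lost 5′ signal relative to 3′ signal in ebselen, by 0.75 on average. The part of this in the pairs was not tested.

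**Figure D4:**
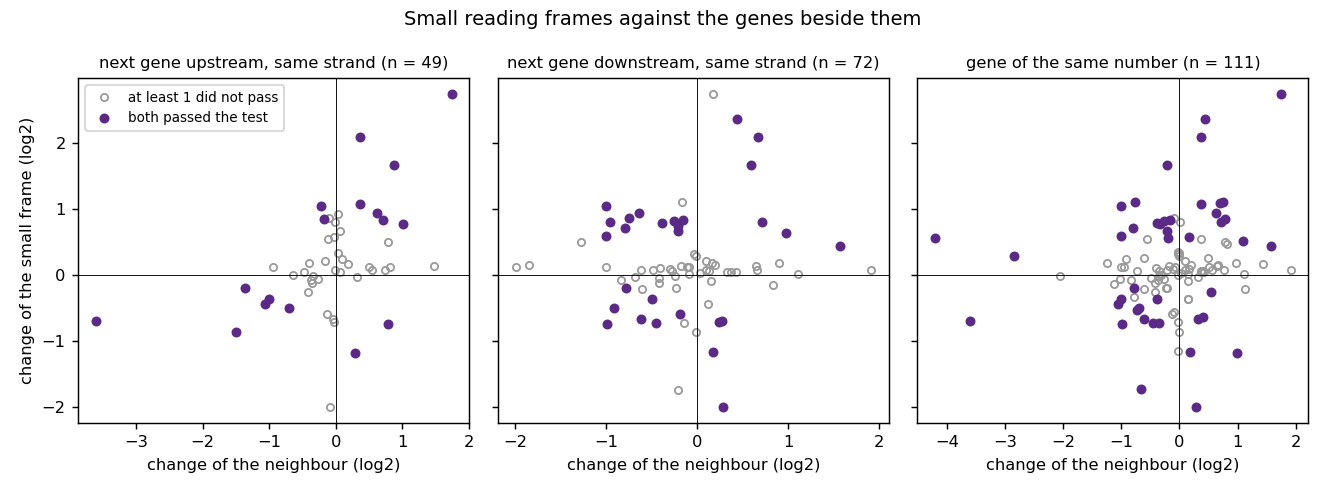
Difference between ebselen and DMSO (log2) of each small suffixed frame against that of its next upstream gene on the same strand, its next downstream gene on the same strand, and the gene of the same number; filled points are pairs in which both passed the test. Filled points in the upstream panel lie in the same-sign quadrants in 13 of 17 cases, against 13 of 28 in the downstream panel.

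Of the 11 Ty frames, 0 rose, 6 fell and 5 did not pass, with a median difference of −0.35. The 1 positive difference was 0.02 (YDR261C-D, adjusted p = 0.889). The share called was 54.5% for the Ty frames and 71.7% for all genes, of which 38.8% fell; among the 131 small frames 27 (20.6%) fell. All but the Ty3 frame YGR109W-B were measured only by probe sets whose identifiers mark sequence shared with other transcripts, so a value may sum over many copies of an element. The largest fall of all 142 frames was that of the Ty2 Gag frame YBL100W-A. It had 1.16 and 1.28 in the DMSO arrays and −1.16 and −1.50 in the ebselen arrays, and fell by 2.55 (SE 0.122, 5.87-fold, adjusted p = 6.57e-05). The Ty4 Gag frame YHL009W-A had 0.58 and 0.54 with DMSO and −0.54 in both ebselen arrays, and fell by 1.10 (SE 0.051, 2.14-fold, adjusted p = 6.26e-05). For both, the ebselen arrays were clearly the lower ones.

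Gag and Gag-Pol frames of the same element type did not change alike, although Gag-Pol spans the Gag sequence. The Ty2 Gag-Pol frames YBL100W-B and YDR261W-B were both at −0.09 (adjusted p = 0.487 and 0.307). The Ty4 Gag-Pol frame YHL009W-B fell by 0.35 (adjusted p = 0.00351). In Ty1 the Gag frame YBL005W-A fell by 0.46 (adjusted p = 0.016), while the Gag-Pol frames YDR261C-D and YDR316W-B were at 0.02 and −0.14 (adjusted p = 0.889 and 0.081). Ty3 went the other way: the Gag frame YGR109W-A was at −0.09 (adjusted p = 0.616), while the Gag-Pol frame YGR109W-B fell by 0.56 and YIL082W-A fell by 0.63.

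Within each array, the Gag level minus the mean Gag-Pol level moved by −0.40 for Ty1, −2.46 for Ty2, 0.51 for Ty3 and −0.75 for Ty4 between DMSO and ebselen. In each of the 4 types the pairs of arrays did not overlap. With 2 arrays a group this is common: single levels did not overlap for 86.6% of all genes and 42.5% of the S. pombe probe sets. Leaving out 1 array at a time gave −0.53 to −0.27, −2.62 to −2.31, 0.32 to 0.69 and −0.82 to −0.68. These differences have no test of their own. The 8 transcripts that the array measures with separate 5′ and 3′ probe sets lost 5′ signal relative to 3′ signal in ebselen, by 0.75 on average (SD 0.26, 8 of 8 transcripts), and the part of this in the Ty frames was not tested. Probe positions within the elements were not used here.

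**Figure D5:**
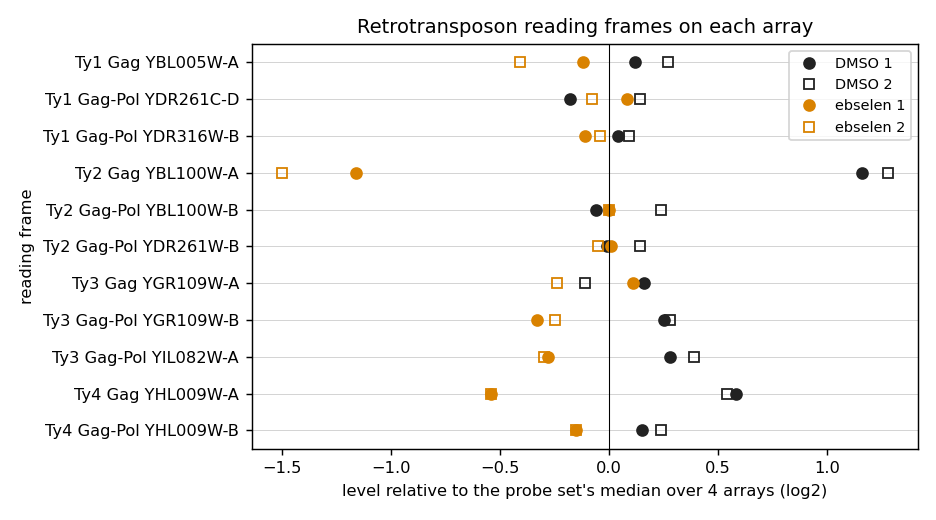
Level on each of the 4 arrays, relative to the probe set's median (log2), for the 11 Ty frames, grouped by element type and product. The Gag frames of Ty2 and Ty4 show the widest separation between DMSO (1.16 to 1.28 and 0.54 to 0.58) and ebselen (−1.50 to −1.16 and −0.54), while the Ty2 Gag-Pol frames lie between −0.06 and 0.24.

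Shared probe sets mattered for a few small frames as well. YLR157W-E fell by 0.62 as the mean of its probe sets, but the shared one gave −1.15 and the unshared one −0.09. YOR072W-B, whose coding span overlaps a transfer RNA gene, rose by 0.63, with 1.09 in the shared and 0.17 in the unshared probe set. YLL066W-B rose by 0.49, and its 3 probe sets gave 0.32, 0.40 and 0.74. YLR154C-H, which overlaps a 5S ribosomal RNA gene in the ribosomal DNA, was measured only by a shared probe set. It rose by 0.84 (SE 0.118), from −0.61 and −0.30 to 0.30 and 0.46, and its source among the repeated copies cannot be told apart.

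Among the longer frames, 3 are named after their values were seen. YKL033W-A, of 711 bases, a putative hydrolase, rose by 0.21 (SE 0.0519), from −0.14 and −0.09 to 0.10 and 0.09. YCR087C-A, of 462 bases, a putative nucleolar zinc finger protein, rose by 0.18 (SE 0.0495), from −0.09 and −0.09 to 0.09 and 0.10. YEL076C-A, at 930 bases the longest small frame and measured by a shared probe set, rose by 0.54 (SE 0.118), from −0.38 and −0.15 to 0.40 and 0.15. The groups were separate in each, as they were in all 75 called frames. The differences of YKL033W-A and YCR087C-A are negative on the hybridization controls, which lower every difference by 0.35.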

How the data were processed

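Total RNA was labelled by the 3′ IVT Express method and hybridized to Affymetrix Yeast Genome 2.0 arrays, per the labels' protocols. The deposited values, normalized by the authors with RMA per the submitters' processing notes, are logarithms read here as log2, since no source used here gives the base; every fold change rests on this. Per the design text, the authors analysed the arrays in GeneSpring 7.2 by a t-test adjusted after Benjamini and Hochberg. Every probe set's deposited values have a median of 0 over the 4 arrays (largest absolute median 5e-07).

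Of 10928 probe sets, the platform annotation gave 1 symbol to 7244, several to 1 and none to 3683, among them 166 controls. Matching by gene ID to a RefSeq table of assembly R64 placed 5498 on 5449 genes; probe sets of 1 gene were averaged. All 142 suffixed frames matched and 0 names were updated. Neighbours, overlaps and coding spans, introns included, come from that table, and strand from the name. The Ty frames were listed by hand from background knowledge.

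Differences were tested with lmFit and eBayes of limma 3.58.1, run in R 4.3.3, on a model with group alone, and Benjamini-Hochberg adjustment at 0.05. Residual degrees of freedom were 2, prior ones 3.13 and the prior SD 0.063. The procedure was run on simulated data in which few genes changed, unlike here, so that run does not give error rates for these data. The number of arrays limits the precision. The settings varied were a block for the replicate number, leaving out each array, quantile normalization, centring on all genes or on S. pombe probe sets, scaling on hybridization controls, removal of the trend with coding length, unshared probe sets only, all probe sets in 1 fit, robust eBayes, thresholds of 0.01 and 0.1 and the methods' t-test.

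The frames and lists were chosen with earlier results of these data known. The text names the 12 largest rises and falls, the 4 largest changes opposite to a called overlapping or same-number gene, 2 Ty frames and the 3 frames nearest the threshold on each side; other frames were named after their values were seen or to describe the Ty types in full. Replicate numbers were not used to pair the arrays, and the labels do not say whether same-numbered cultures were handled together. Deviations of same-numbered arrays correlated at −0.075, which cannot settle this. Promoter motifs and protein sequences were planned and are not analysed here. Figures were drawn with matplotlib 3.10.9.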

Additional observations from a re-analysis of the deposited data

How the results depend on the processing

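The count of suffixed frames that rose or fell stayed within 1.5 times of 42 and 33 in all alternatives but the methods' t-test (21 and 19) and scaling on hybridization controls (23 and 78). The t-test called 14.8% of the frames higher and 13.4% lower, against 22.6% and 25.9% of all genes. No frame changed from called higher to called lower or the reverse under any alternative fitted per gene. The hybridization controls kept 23 of the 42 rises and all 33 falls and added 45 falls. Over all genes they gave 645 higher and 3177 lower, against 1796 and 2113. They lower every difference by 0.35. Their offsets also differed between replicates (−0.234 and −0.112 for DMSO, 0.114 and 0.250 for ebselen), which alters the spread within groups. The parts of the shift and of the spread in the calls were not tested. With all probe sets in 1 fit, 38 of 148 probe sets (25.7%) were higher and 30 (20.3%) lower. Of all 10762 probe sets in that fit, which include those of S. pombe, 18.5% were higher and 17.9% lower. The median difference of 0.05 moved to −0.304 on the hybridization controls, −0.016 on S. pombe centring, −0.051 without the length trend and 0.094 after quantile normalization. Leaving out 1 array at a time gave medians of 0.007 to 0.094. With the replicate number as a block, 43 frames rose and 33 fell, with 1670 and 1971 over all genes and a median of 0.05. Whether that number pairs the arrays is not stated in the labels. Among the frames picked by the naming rules and their same-number genes, differences reversed without the length trend for NUP100 (−0.017) and FKS1 (−0.034). On the hybridization controls they reversed for YDL085C-A (−0.074), VEL1 (−0.071) and NUP100 (−0.178). Every other rise below 0.35 is negative there too, among them YCR087C-A (0.18 as deposited), YKL033W-A (0.21) and YHR214C-D (0.33). Apart from the shift, the cause was not tested. With 2 arrays a group and centred values, a frame without a signal above background cannot be told from one that did not change.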
